A study of Canis lupus familiaris with 12 samples.

Results

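miR-143, miR-145, miR-199, miR-214 and miR-140 are microRNAs (miRNAs) known mostly from mesenchymal tissue. They were chosen by name, and all 5 entries (cfa-miR-143, cfa-miR-145, cfa-miR-199, cfa-miR-214 and cfa-miR-140, with cfa for the dog) were among the 453 miRNAs in the count table. No entry of the table carried one of these names with an added suffix, and the entries do not say which arm of the precursor was counted. The study compared CHMm, a cell line from a metastatic lesion of a canine mammary gland tumor (CMGT), with its tamoxifen (TAM)-resistant derivative, called CHMmTAM here. Resistance was selected by increasing the TAM concentration over 10 months until the cells grew at 10 μM, and the labels add 1 month at that concentration and 1 week without the drug. The labels give phenol-red-free medium with charcoal-stripped serum for both lines, and the study's methods also list 4-hydroxytamoxifen in the medium without saying for which line. From each line 3 small RNA libraries were sequenced. CHMmTAM is a single derived line, so resistance and other differences acquired over the months of culture cannot be told apart. Neither the labels nor the study say that the libraries of a line came from separate cultures, so the p-values measure the spread between these libraries, which may be technical. The test of fold changes shares its estimate of that spread over all miRNAs. A p-value from it therefore rests mostly on that shared estimate and little on the spread of a miRNA's own 3 libraries.

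A miRNA binds messenger RNAs that match its seed, near its 5′ end, and lowers their translation and stability. miR-143 and miR-145 are made from one primary transcript and are known for their high level in smooth muscle and fibroblasts, where they act on the switch between contractile and proliferating cells. miR-199 and miR-214 are known from the DNM3OS transcript of fibroblasts and developing skeletal mesenchyme and have been studied in fibrosis. miR-140 is encoded in an intron of WWP2, a ubiquitin ligase gene, and is known for its part in cartilage. In mammary tissue miR-143, miR-145, miR-199 and miR-214 are mostly ascribed to the stroma and the myoepithelium, and their levels in pure epithelial cultures are usually low.

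From RefSeq's gene table for the dog assembly UU_Cfam_GSD_1.0, only overlapping genes and miRNA genes within 10 kb were taken. The transcripts and the intron named above were not checked in the dog. MIR143 and MIR145 lay within 10 kb of each other and inside no other gene. MIR214 and MIR199-2 lay within 10 kb of each other, inside the span of DNM3. miR-199 had 3 loci, and the others, MIR199-1 and MIR199-3, lay inside DNM2 and DNM1. MIR140 lay inside WWP2. A count of miR-199 can therefore come from any of 3 genes, only 1 of which neighbours MIR214. The submitters' processing notes name another assembly, CanFam3.1, so no coordinates are given.

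Library totals lay between 7512659 and 12482211 counts, and a level of 3 counts was worth 0.240 CPM (counts scaled to a library total of 1000000) in the deepest library and 0.399 CPM in the shallowest. Replicate libraries were distinct, with a chi-square per degree of freedom of at least 26.3 over all miRNAs for any pair of the same line. Epithelial miRNAs were abundant in both lines. The 7 epithelial markers, the miR-200 family with miR-203 and miR-205, summed to between 24457 and 26853 CPM in CHMm and between 21958 and 23739 CPM in CHMmTAM. miR-200c, which restrains the mesenchymal regulators ZEB1 and ZEB2, led them at 12807 ± 504 CPM (mean ± SD of 3 libraries, as in all values below) in the parental line and 12272 ± 326 CPM in CHMmTAM, followed by miR-205 with 5998 ± 139 and 3802 ± 64.2 CPM. miR-126, the endothelial marker, had no count in CHMm and 1, 3 and 1 counts in CHMmTAM.

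Of the 5 mesenchymal miRNAs, miR-140 rose and miR-199 fell in CHMmTAM, while miR-143, miR-214 and miR-145 did not pass the test. miR-140 rose 2.03-fold and miR-199 fell to 0.556 of its CHMm level. Scaling used the TMM method of edgeR and the comparison its quasi-likelihood test, with the false discovery rate (FDR) adjusted over all 284 miRNAs that had at least 10 counts in total. All 5 passed that filter. An FDR below 0.05 was reached by 125 of the 284 miRNAs (44.0%), 72 higher (25.4%) and 53 lower (18.7%) in CHMmTAM. Against that background, 2 of 5 is not a result about these miRNAs as a list. Their median log2 fold change was -0.17, with 0.06 over all miRNAs tested, and their median size of change regardless of direction was 0.55, with 0.41 over all. The study's further threshold, a log2 fold change above 1 or below -1, was passed by 32 of all miRNAs (11.3%), 17 upward (5.99%) and 15 downward (5.28%), and by 1 of the 5, miR-140. The study's own list of miRNAs past these thresholds does not hold miR-140 or any other of the 5. The split over all miRNAs depended on the scaling, with 64 higher and 73 lower under RLE size factors, 59 and 66 in DESeq2, and 41 and 100 under upper-quartile normalization.

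**Figure D1:**
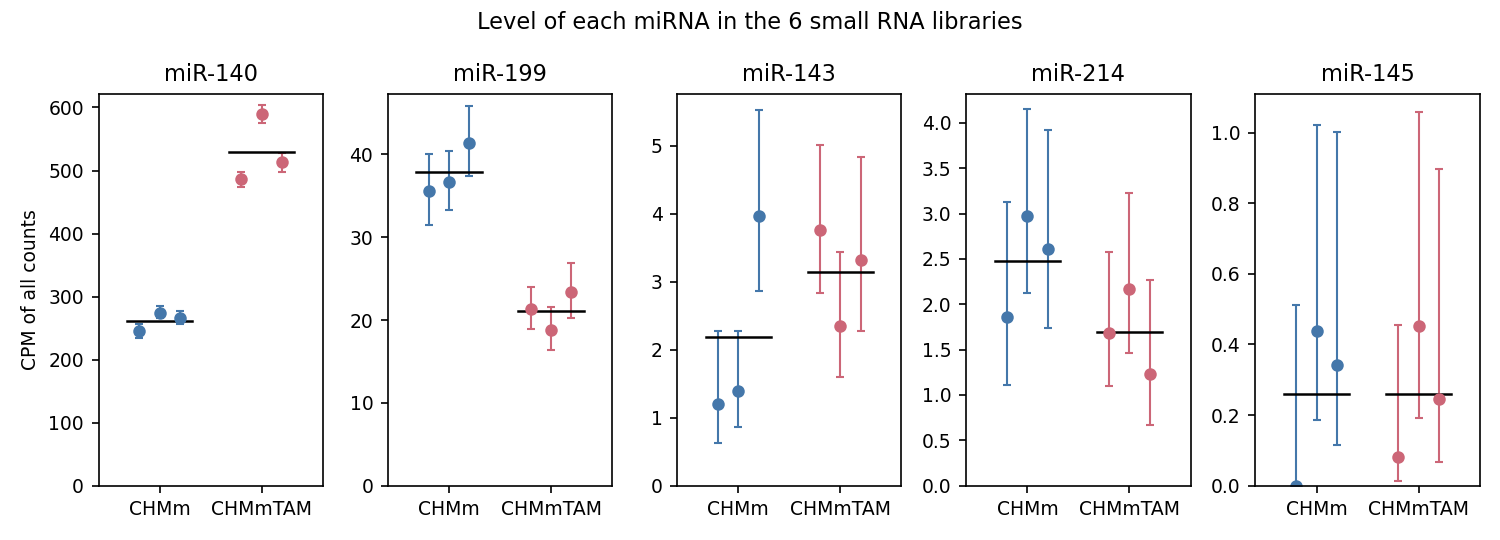
Level of each miRNA (CPM of all counts, linear axis from 0, with its own scale in each panel) in the 3 CHMm libraries (blue) and the 3 CHMmTAM libraries (red), with replicates 1, 2 and 3 from left to right. Bars are 95% Wilson intervals, which cover counting error only, and black lines are means. The lines are apart for miR-140 and miR-199 and overlap for miR-143, miR-214 and miR-145.

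miR-140, the cartilage-associated miRNA, was the most abundant of the 5 in each library. The parental libraries held 1838, 3145 and 2349 counts of it and the resistant ones 6067, 6521 and 4173. All 3 CHMmTAM libraries lay above all 3 CHMm libraries once scaled, as was the case for 28.9% of the miRNAs tested. The scaled level was 262 ± 9.76 CPM in the parental line (SD, n = 3) and 530 ± 58.3 CPM in the resistant one, a log2 fold change of 1.02 (95% interval 0.87 to 1.16, FDR = 1.02e-39 from edgeR's quasi-likelihood test). Its abundance rank among the 284 miRNAs moved from 81 in CHMm to 66 in CHMmTAM. In both lines its level was within the range of the 7 epithelial markers. The lowest of these, miR-200b, was at 101 ± 8.65 CPM in CHMm and 118 ± 9.38 CPM in CHMmTAM. The CHMmTAM libraries were less alike than those of CHMm, with coefficients of variation of 11.0% and 3.73%. Counting error alone would give about 1.34% and 2.02%, so the libraries differed by more than counting error in both lines. Over the fits that left out 1 library, the FDR of miR-140 ran from 1.05e-45 to 5.94e-07 (edgeR's quasi-likelihood test). The fold change lay close to the study's threshold and stayed beyond it in 10 of 16 processing alternatives. Among the scalings it was 1.01 with library totals only and 0.95 under RLE size factors. It was 0.77 under upper-quartile normalization and 0.96 without the 10 most abundant miRNAs. DESeq2 gave 0.95. The other values below 1 were 0.99 without CHMm replicate 1 and 0.93 without CHMmTAM replicate 2. Passing this threshold thus depended on the scaling.

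miR-199, known from fibroblasts and hepatic stellate cells, moved in the opposite direction. Its counts were 267, 420 and 365 in the parental libraries and 266, 208 and 190 in the resistant ones. The lowest scaled CHMm library, at 36.2 CPM, was above the highest CHMmTAM library, at 23.9 CPM. This order, with CHMmTAM below CHMm in all libraries, held for 22.9% of the miRNAs tested. The mean fell from 37.8 ± 2.58 to 21.2 ± 2.53 CPM (SD, n = 3), a log2 fold change of -0.85 (95% interval -1.06 to -0.63, FDR = 2.54e-13 from edgeR's quasi-likelihood test). The difference was larger than the spread between replicates but smaller than the study's threshold of a log2 fold change of -1, which it passed under upper-quartile normalization only (-1.09). The coefficient of variation between replicates was 6.83% in CHMm and 11.9% in CHMmTAM, where counting error alone would give about 5.34% and 6.72%.

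Because miR-140 rose and miR-199 fell, the ratio of their counts within a library, which is free of scaling between libraries, moved apart. miR-140 had 6.88, 7.49 and 6.44 times the counts of miR-199 in CHMm and 22.8, 31.4 and 22.0 times in CHMmTAM. This ratio was chosen after both fold changes were seen and is given as a description. miR-140 accounted for between 84.6% and 86.9% of the summed counts of the 5 miRNAs in CHMm and between 94.8% and 96.1% in CHMmTAM. The sum of all 5 was between 283 and 316 CPM of all counts in CHMm and between 513 and 613 in CHMmTAM. Without miR-140 the order turned, with 38.6 to 48.3 CPM in CHMm and 23.8 to 28.1 CPM in CHMmTAM.

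miR-214, the neighbour of one miR-199 gene, was much scarcer than miR-199. The parental libraries held 14, 34 and 23 counts and the resistant ones 21, 24 and 10. Once scaled, the libraries of the lines overlapped, at 1.91 to 2.93 CPM in CHMm and 1.26 to 2.18 CPM in CHMmTAM. The log2 fold change was -0.55 (edgeR quasi-likelihood FDR = 0.178), and its 95% interval of -1.20 to 0.11 held both no change and the change of miR-199. Under upper-quartile normalization miR-214 passed the test, at -0.79 (FDR = 0.0378 from edgeR's quasi-likelihood test). miR-199 had 19.1, 12.4 and 15.9 times the counts of miR-214 in CHMm and 12.7, 8.67 and 19.0 times in CHMmTAM. The log2 ratio of miR-214 to miR-199 was -3.92 ± 0.30 (SD, n = 3) in CHMm and -3.63 ± 0.55 in CHMmTAM, and the lines overlapped (exact two-sided permutation test, p = 0.6, adjusted p = 0.7 over 2 ratios, smallest possible p = 0.1). With 3 libraries of each line this test cannot reach 0.05, so whether these neighbours changed differently was not settled.

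**Figure D2:**
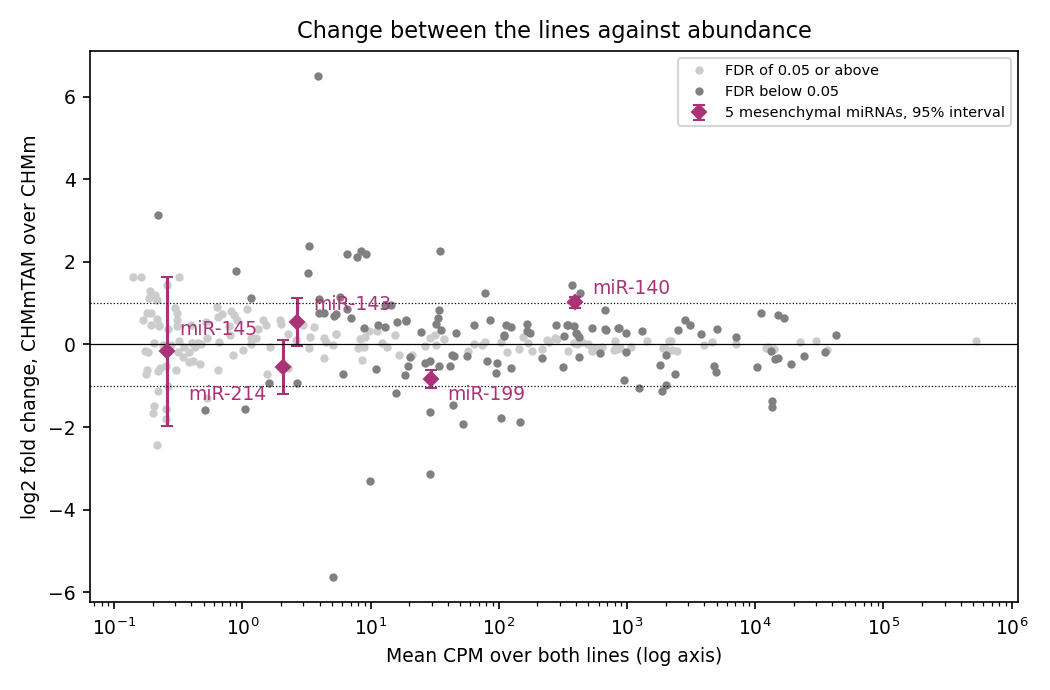
log2 fold change of CHMmTAM over CHMm (vertical axis) against the mean CPM over both lines (horizontal log axis) for the 284 miRNAs tested, with the 5 mesenchymal miRNAs as diamonds with 95% intervals. Dotted lines mark log2 fold changes of 1 and -1. The intervals of miR-140 and miR-199 exclude 0, and that of miR-145, at the lowest level, reaches from -1.96 to 1.63.

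miR-143, the smooth muscle and fibroblast miRNA, was counted 9, 16 and 35 times in the parental libraries and 47, 26 and 27 times in the resistant ones. CHMm replicate 3 stood apart from the other libraries of its line. Its share, 3.97 CPM of all counts (95% Wilson interval 2.86 to 5.52), lay above the intervals of replicates 1 and 2, which ended at 2.28 and 2.27 CPM. It was as high as the highest CHMmTAM library, at 3.77 CPM (2.83 to 5.01), so the lines overlapped. Over all libraries the scaled level was 2.17 ± 1.51 CPM in the parental line (SD, n = 3) and 3.14 ± 0.70 CPM in the resistant one. The log2 fold change was 0.54 (95% interval -0.04 to 1.12, FDR = 0.129 from edgeR's quasi-likelihood test). Without CHMm replicate 3 it was 1.24 (edgeR quasi-likelihood FDR = 0.00299), and that library alone decided the call. Without CHMm replicate 2 it was 0.24 and without CHMm replicate 1 it was 0.32, so these libraries also moved the value by over 1.5 times.

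The replicate spread of miR-143 in CHMm, 69.4%, was well above the 22.4% that counting error gives, whereas in CHMmTAM the values were 22.1% and 17.3%. Of the 212 other miRNAs with a mean of at least 10 counts, the profile closest to miR-143 over the 6 libraries was that of miR-127, an imprinted miRNA of the DLK1-DIO3 region that is also known from mesenchymal cells. The root mean square difference of their centred log2 CPM was 0.17, and the next miRNAs, miR-8903 and let-7j, were at 0.39 each. miR-127 was counted 4, 9 and 20 times in CHMm and 30, 15 and 12 times in CHMmTAM, highest in the same library of each line as miR-143. Its log2 fold change of 0.58 did not pass the test (FDR = 0.236 from edgeR's quasi-likelihood test). This likeness over 6 libraries is a description, and at these counts it rests on a few reads per library.

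miR-145, the partner of miR-143, was at the limit of detection. Its counts were 0, 5 and 3 in the parental libraries and 1, 5 and 2 in the resistant ones, with a sum of 8 counts in either line. The 95% Wilson interval of the CHMm library without a count ended at 0.511 CPM of all counts, and the highest upper bound over the 6 libraries was 1.06 CPM. The log2 fold change of -0.17 had a 95% interval of -1.96 to 1.63 (FDR = 0.914 from edgeR's quasi-likelihood test), or a fold between 0.256 and 3.09, so no difference between the lines was detectable at this depth. Among the 71 miRNAs below 1 CPM only 3 passed the test (4.23%), compared with 23 of the 56 between 1 and 10 CPM (41.1%) and 37 of the 52 between 10 and 100 CPM (71.2%). The median standard error of the log2 fold change was 0.89, 0.25 and 0.11 in these classes. In the libraries in which miR-145 was counted, miR-143 had 3.20 and 11.7 times its counts in CHMm and 47, 5.20 and 13.5 times in CHMmTAM. The log2 ratio of miR-145 to miR-143 was -3.06 ± 1.35 (SD, n = 3) in CHMm and -3.57 ± 1.36 in CHMmTAM, with 0.5 counts added to each (exact two-sided permutation test, p = 0.7, adjusted p = 0.7, smallest possible p = 0.1).

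By level, the 5 miRNAs followed the order miR-140, miR-199, miR-214, miR-143, miR-145 in CHMm, at ranks 81, 126, 191, 194 and 257 of 284. In CHMmTAM miR-143, at rank 191, was ahead of miR-214, at rank 201. These compare reads of RNAs of nearly equal length, although small RNA library preparation does not recover each miRNA equally well. The scaled values of every neighbouring pair in this order were apart in all libraries of a line, except that miR-143 and miR-214 overlapped in CHMm. miR-143 had 0.643, 0.471 and 1.52 times the counts of miR-214 in CHMm and 2.24, 1.08 and 2.70 times in CHMmTAM, and the ratios of the lines overlapped.

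**Figure D3:**
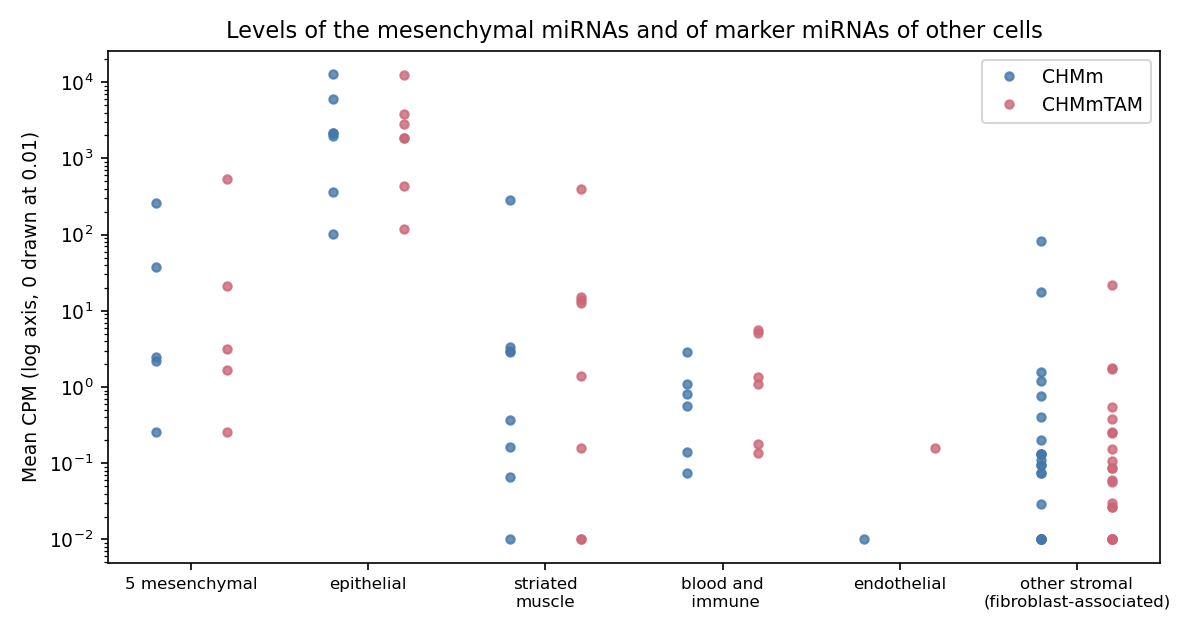
Mean CPM (log axis) of the 5 mesenchymal miRNAs and of the marker miRNAs of other cell types in CHMm (blue) and CHMmTAM (red), each point being 1 miRNA and a level of 0 drawn at 0.01. The epithelial markers lie between 101 and 12807 CPM, while most stromal, blood and endothelial markers lie below 10 CPM in both lines.

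The wider group of stromal miRNAs, miR-152, miR-218 and members of the DLK1-DIO3 region, was mostly at the limit of detection. Of its 21 miRNAs, 2 had no count and 13 had at most 3 counts in any library. Of the 8 tested, 4 fell, none rose and 4 did not pass the test, with a median log2 fold change of -1.56. That median does not describe every tested member. Of those that did not pass, miR-379 was at -1.56, while miR-127, miR-409 and miR-134 went the other way, at 0.58, 0.45 and 1.43. Over all miRNAs tested, 18.7% fell and 25.4% rose. Among those of the list that fell, miR-411 had only 1, 8 and 13 counts in CHMm and 4, 1 and 3 in CHMmTAM, and the lines overlapped. The sum of the list was between 92.2 and 115 CPM in CHMm and between 26.5 and 27.9 CPM in CHMmTAM. It was carried by miR-218, at 82.4 ± 6.51 CPM in the parental line and 21.8 ± 1.89 CPM in the resistant one (SD, n = 3), and by miR-152, at 17.9 ± 1.37 and 1.78 ± 0.470 CPM. The other 19 miRNAs of the list summed to 18, 52 and 72 counts in CHMm and to 66, 33 and 26 counts in CHMmTAM. Like miR-143, this sum was highest in replicate 3 of CHMm, at 8.17 CPM of all counts, and in replicate 1 of CHMmTAM, at 5.29 CPM. The sum includes miR-127, already named for its likeness to miR-143 over these same libraries. miR-127 gave 20 of the 72 counts in CHMm replicate 3 and 30 of the 66 in CHMmTAM replicate 1. The likeness of the sum is therefore in part the same observation. That split of the list was made after its values were seen. Whether RNA of stromal cells has a part in the values of miR-143 was not tested, and in a bulk library fewer cells of a type and less RNA per cell cannot be told apart.

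Some markers of muscle and blood cells were also higher in CHMmTAM, as were 25.4% of all miRNAs tested. All 5 tested miRNAs of the striated muscle list rose, with a summed level of 284 to 309 CPM in CHMm and 430 to 442 CPM in CHMmTAM, of which miR-499 made up 283 ± 20.6 and 395 ± 6.16 CPM and miR-1 made up 3.40 ± 0.410 and 15.2 ± 2.02 CPM. Of those not tested, miR-208a had no count, and miR-206 had at most 3 in any library. miR-208b, also not tested, went the other way, with 3, 1 and 0 counts in CHMm and no count in CHMmTAM. In the blood and immune list, of 6 miRNAs, 2 of the 4 tested rose, miR-486 and miR-142, and the list summed to between 4.99 and 6.12 CPM in CHMm and between 12.2 and 15.0 CPM in CHMmTAM. miR-486 was at 1.09 ± 0.297 and 5.54 ± 0.865 CPM and miR-142 at 2.92 ± 0.495 and 5.07 ± 0.485 CPM. In the epithelial list 3 rose, 2 fell and 2 did not pass the test, with 25.4% higher and 18.7% lower over all miRNAs tested. The part of these markers in the rise of miR-140 or the fall of miR-199 was not tested.

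The search for similar profiles took in only miRNAs with a mean of at least 10 counts, which left out most of the stromal list. Besides miR-127 it kept miR-152, miR-218 and miR-381 of that list, with log2 fold changes of -3.31, -1.92 and -1.57. With so few stromal miRNAs compared, it cannot decide whether the mesenchymal miRNAs follow stromal ones. The miRNAs it found most like the mesenchymal miRNAs over the 6 libraries lay outside the stromal list, apart from miR-127. For miR-140 they were miR-2387, miR-181b and miR-187, with root mean square differences of 0.10, 0.13 and 0.15 in centred log2 CPM. miR-181b, of a family studied in lymphocyte development, rose from 484 ± 21.8 to 866 ± 57.6 CPM (SD, n = 3). For miR-199 they were miR-155, miR-99b and miR-128, at 0.13, 0.15 and 0.16. miR-155, an inflammatory miRNA, fell from 2957 ± 122 to 1787 ± 62.5 CPM, and miR-128, known from neurons, from 1213 ± 58.8 to 667 ± 56.1 CPM. For miR-214 they were miR-33a, miR-27a and miR-8890, at 0.17, 0.21 and 0.21, and miR-33a, an intronic miRNA of the sterol regulator SREBF2, fell from 22.9 ± 1.62 to 16.0 ± 2.08 CPM. miR-145 had too few counts for this comparison. The measure takes in the difference between the lines as well as the spread within them.

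**Figure D4:**
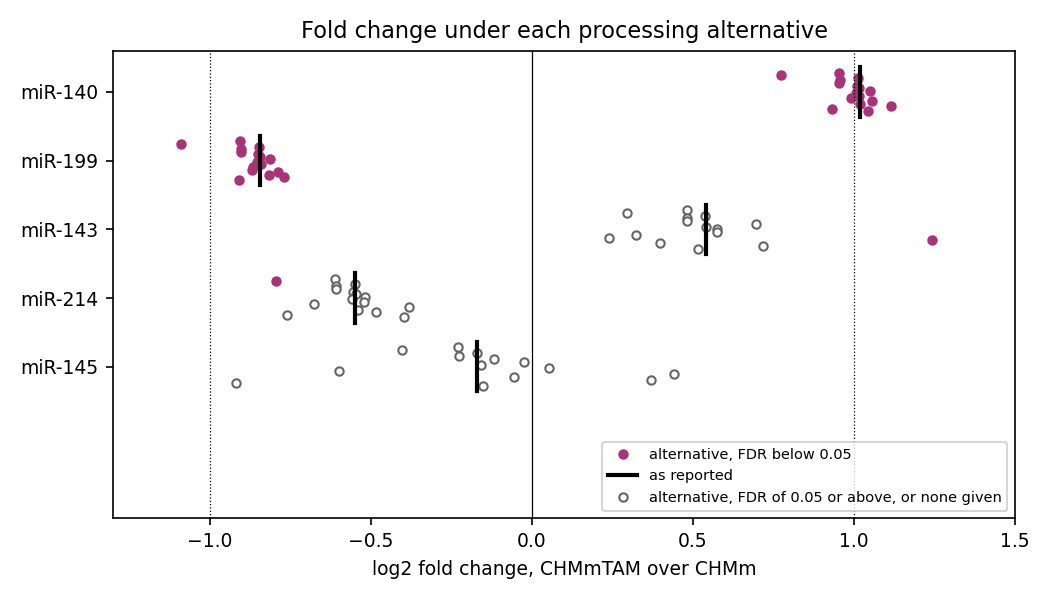
log2 fold change of CHMmTAM over CHMm for the 5 miRNAs as reported (black lines) and under each processing alternative (points, filled where the FDR was below 0.05). miR-140 and miR-199 passed the test in all 16 alternatives, miR-143 only without CHMm replicate 3 and miR-214 only under upper-quartile normalization, and miR-145 lay on both sides of 0.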

How the data were processed

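The members and lists were chosen with earlier results of these data known. For 6 small RNA libraries the authors deposited a table of raw counts, the reads assigned to each mature miRNA, which are not normalized. The submitters' processing notes name HISAT2 2.0.4, BWA and CanFam3.1 without a role, and the counting tool, the miRNA database and the handling of reads that match several miRNAs are not given in the sources used here, although these steps can move counts between similar miRNAs or loci. The 6 RNA-seq libraries were not analysed here.

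Libraries were grouped by sample title. Of 453 miRNAs, 24 had no count. The 284 with a total of at least 10 counts were fitted with edgeR 4.0.16 (R 4.3.3; TMM factors, quasi-likelihood test, no block, Benjamini-Hochberg adjustment), which was tested on simulated data. Standard errors come from the coefficient and its F statistic. CPM values use TMM factors unless given as CPM of all counts. Wilson intervals and the limit of 3 counts cover counting error only. Intervals of log2 fold changes come from the fit and include a spread between libraries that is estimated with all miRNAs together. Ratios used exact permutation tests. Alternatives were other scalings, DESeq2 1.42.0, limma-voom (limma 3.58.1), other filters, a replicate block and each library left out. Tables and figures used Python 3.11.15, pandas 2.3.3, SciPy 1.17.1 and matplotlib 3.10.9.

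The miRNAs named were the 5 members and the 2 most abundant of each marker list. Named too were the 3 with the closest profile to each member (0.1 CPM added before the log2). Others were needed for a low count or a comparison of levels. No mature sequences were used here.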

Additional observations from a re-analysis of the deposited data

How the results depend on the processing

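miR-140 and miR-199 kept their direction and an FDR below 0.05 (edgeR, DESeq2 or limma) in all 16 alternatives, with log2 fold changes from 0.77 to 1.11 and from -1.09 to -0.77. miR-143 stayed positive, from 0.24 to 1.24 over the fits that left out one library, and passed the test only without CHMm replicate 3. miR-214 stayed negative and passed only under upper-quartile normalization, at -0.79, with -0.76 to -0.38 over the fits without one library. miR-145 turned to 0.052 with the replicate block and ranged from -0.92 to 0.44 without one library. Its ratio to miR-143 differed between the lines by -0.51 on the log2 scale, by 0.067 with 0.1 counts added, and by -1.16 to 0.22 without one library. That of miR-214 to miR-199 differed by 0.29 and kept its sign in all 8 alternatives. It ran from 0.017 to 0.56 without 1 library, and was lowest without CHMmTAM replicate 2. The median log2 fold change of all miRNAs, 0.06 as reported, was -0.18 under upper-quartile normalization. A scaling shifts all miRNAs by nearly the same amount, so the distance from that median, 0.95 to 0.96 for miR-140 and -0.91 to -0.90 for miR-199, hardly changes by construction. The counts of 32 and 125 miRNAs stayed within 1.5 times in every alternative that kept their thresholds.

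With the replicate block, 126 miRNAs passed the FDR threshold and no call of the 5 changed. The deviations of same-numbered libraries correlated at 0.06, 0.46 and -0.31 over 117 miRNAs, so pairing by number was not shown, and neither the labels nor the study state it. The default filter of edgeR gives no value for miR-145, and at least 10 counts in every library none for miR-143 and miR-145. DESeq2 gave miR-145 no adjusted p. Depth limits miR-145 and miR-214, whereas miR-143 in CHMm varied between libraries by more than counting error.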
